A study of Bos taurus with 21 samples.

Results

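Cytotoxic lymphocyte genes were followed in the milk somatic cells of 21 Holstein cows. The members were 9 genes listed by symbol, namely PRF1, GZMA, GZMB, NKG7, IFNG, FASLG, EOMES, TBX21 and KLRK1. All 9 had a row among the 13570 gene rows of the count tables, and 8 of them had a count in at least 1 cow, as did 12333 genes in all. At least 10 counts in at least 11 cows were found for 7 members, and the comparisons of single members rest on these. Counts out of 8 tested members also include FASLG, which had 1 read in all.

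Cytotoxic T cells and natural killer cells kill infected or altered cells by releasing granules that hold perforin and granzymes, or through the FAS ligand on their surface. They also secrete interferon gamma, which activates macrophages. The T-box factors TBX21 and EOMES direct the expression of this programme, and KLRK1 encodes the activating receptor NKG2D. In milk, lymphocytes share the somatic cell fraction with macrophages, neutrophils and shed mammary epithelial cells, and their proportions are known to vary with udder health and stage of lactation.

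Each library came from 1 cow of 1 farm, sampled by hand milking and with no treatment named in the labels, and 9 cows belonged to the high yielding group (HY) and 12 to the low yielding group (LY) by their breeding value of milk yield. Parity ran from 2 to 4 in both groups, and lactation period ran from 41 to 268 days in HY and from 52 to 270 days in LY. The tables held 7878557 to 28541904 counts on genes per cow. The 7 T cell markers present out of 8 listed summed to between 52.6 and 696 CPM (counts scaled to library size with TMM factors) in HY and to between 71.8 and 1190 CPM in LY. In bulk RNA of this kind, fewer cells of a type and less RNA per cell cannot be told apart. The study's mapping rates separated 16 cows with a lower rate from 5 with a higher rate, 1 of them HY and 4 LY, and values within the 16 cows are given beside the pooled ones.

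A pair of members, GZMB and FASLG, was close to absent from the tables, so no fold is given for them. GZMB was not fitted, and FASLG entered the fits with its 1 read.

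GZMB, the granzyme that cleaves caspases in target cells, had a total of 0 counts over the 21 cows. With 317475282 counts on genes in all, this allows a level of up to 0.00891 TMM-scaled CPM over all cows, and of up to 0.0826 to 0.589 TMM-scaled CPM in single cows. These limits cover counting error only. In the RefSeq gene order of assembly ARS-UCD2.0, the 8 genes that follow GZMB and the 2 directly before it carry only locus numbers, and 0 of them had a row in the count tables. Reads that aligned to several places made up 21.6% to 27.5% of the reads summed over all lines of a cow's table and were not assigned to genes. Whether GZMB reads were among them was not tested.

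FASLG, the membrane ligand that triggers death through the FAS receptor, had 1 read in 1 cow, HY cow 7, and 0 in the other 20. The read gives 0.125 CPM in that cow, with an exact Poisson 95% interval from 0.00317 to 0.697 CPM for counting error.

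PRF1, which encodes perforin, the protein that opens pores in the target membrane, was counted in all 21 cows. Its level in HY was 2.16 CPM at the lowest, 16.0 at the median and 34.5 at the highest. In LY it was 5.04, 16.0 and 123 CPM. The groups overlapped, and LY cow 12 and LY cow 7 (48.5 CPM) lay above every HY cow.

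GZMA encodes a granzyme that passes through the perforin pore. It ran from 0 to 38.2 CPM in HY with a median of 1.34, and 2 of the 9 HY cows had no count. In LY it ran from 0 to 14.6 CPM with a median of 2.94, and 1 of the 12 LY cows had no count. The spread of GZMA was wide, with an SD of 2.04 on the log2 scale over 21 cows against 1.28 for PRF1. A further row named gzmA lies directly beside GZMA in the gene order. It held 470 counts against 2425 for GZMA and was counted in 17 cows, so reads of the gene may be divided between both rows.

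NKG7 encodes a membrane protein of cytotoxic granules. It was counted in all 21 cows, from 62.5 to 327 CPM in HY with a median of 124, and from 64.8 to 265 CPM in LY with a median of 117. Its SD over the 21 cows was 0.68 on the log2 scale, the narrowest among the 7 members. HY cow 1 and LY cow 5 were the highest of their groups, and the groups overlapped.

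IFNG, the gene of interferon gamma, was low throughout. It ran from 0.375 to 5.14 CPM in HY with a median of 1.37, and from 0 to 8.76 CPM in LY with a median of 1.48. Only 15 of the 21 cows had 10 or more IFNG counts. The highest level stood in LY cow 6.

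The T-box factors were counted in most cows. EOMES, which acts in memory and killer cells, had no count in 3 of the 9 HY cows and a count in all 12 LY cows. It ran up to 9.94 CPM in HY with a median of 1.41, and from 0.189 to 11.5 CPM in LY with a median of 4.53. TBX21, the factor named T-bet, lacked a count only in HY cow 9. It ran up to 21.5 CPM in HY with a median of 7.50, and from 1.37 to 22.7 CPM in LY with a median of 7.32. Both factors overlapped between HY and LY.

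KLRK1 encodes a receptor for stress ligands on killer and T cells. It ran from 0 to 14.3 CPM in HY with a median of 3.45, and from 1.41 to 42.5 CPM in LY with a median of 10.7. LY cow 6 had the highest level, and HY cow 9 was the only cow without a count. In HY cow 9 the top 10 genes held 59.8% of the counts on genes, and 0 counts allow up to 0.589 CPM. HY cow 7 had 0.500 CPM, so the 0 does not set HY cow 9 apart from it.

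**Figure D1:**
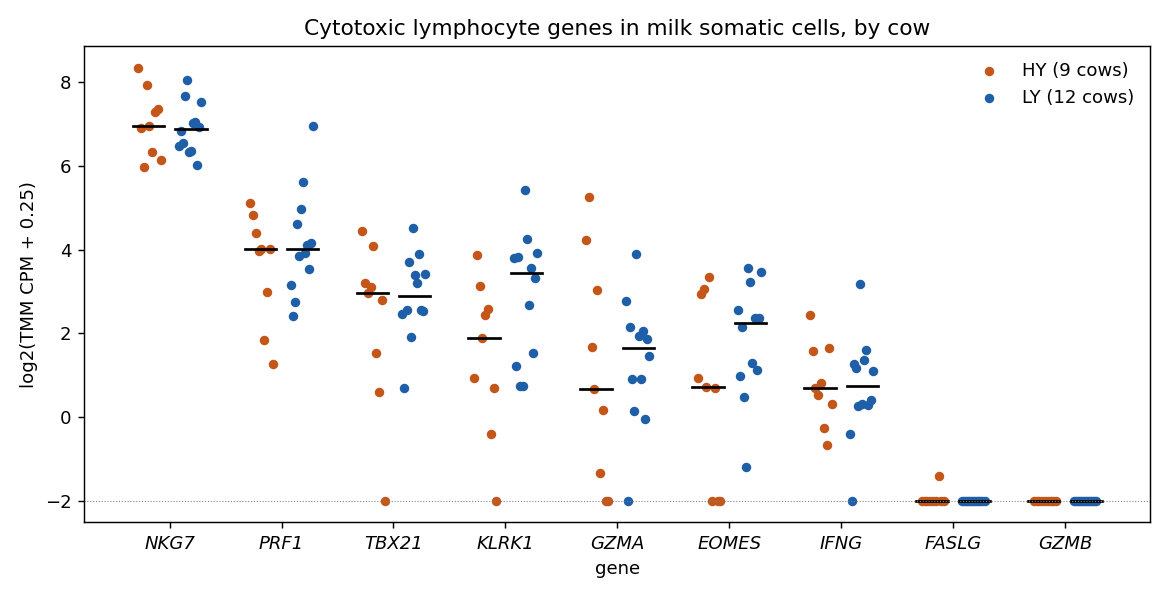
Level of each of the 9 genes in each cow, as log2(TMM CPM + 0.25), with 9 HY cows in orange and 12 LY cows in blue; black bars are group medians and the dotted line at -2 marks a count of 0. HY and LY overlapped for every gene with counts, and GZMB lay on the line in all 21 cows. Gene length is not accounted for, so heights of different genes are not comparable.

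The same cows stood at the ends for most members. When each of the 7 members was set to a mean of 0 and an SD of 1 over the cows and the 7 were averaged, HY cow 9 was lowest at -1.79 and LY cow 2 followed at -1.07. LY cow 6 was highest at 1.09, followed by LY cow 12 at 0.888 and HY cow 1 at 0.884. As a description over 21 cows, the 15 pairs of members without NKG7 correlated with a Pearson r of 0.252 to 0.769 and a median of 0.608. The tightest pair was EOMES with KLRK1, and the loosest was IFNG with EOMES. The 6 pairs with NKG7 ranged from -0.276 to 0.361. All values of a cow share 1 library and 1 scaling factor.

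The members were then compared with the T cell receptor genes. The T cell receptor level of a cow was the mean log2(TMM CPM + 0.25) of CD3D, CD3E, CD3G and CD247, the signalling chains of the receptor, and ran from 2.98 in HY cow 9 to 7.55 in LY cow 6. The test was the quasi-likelihood test of edgeR over 12333 genes with Benjamini-Hochberg adjustment, and its slope is the log2 change of a gene per 1 log2 unit of the level. It is a relation between measures of the same libraries.

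Of the 8 members tested, 6 rose with the T cell receptor level at an adjusted p under 0.05 and 0 fell. Over all genes, 3.4% rose and 3.91% fell. The median slope was 0.89 over the 8 members, among them FASLG with its 1 read, and 0.03 over all genes.

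Perforin and granzyme A rose with the level. The slope of PRF1 was 0.85 ± 0.16 (SE, 21 cows, adjusted p = 0.0016), and its Pearson r with the level was 0.757 (permutation p = 9e-05), with a Spearman rho of 0.749 (permutation p = 0.0002). Leaving out the pair of cows most distant from the median level gave an r of 0.688, and within the 16 cows of the lower mapping rate it was 0.707. Within those 16 cows the slope of PRF1 was 0.59 with an adjusted p of 0.0902, which missed the threshold. GZMA had the steepest slope of the members, 1.58 ± 0.34 (adjusted p = 0.00658). Its r was 0.78 (permutation p = 2e-05; rho 0.785, permutation p = 3e-05), with 0.71 without the 2 farthest cows and 0.797 within the 16 cows. In the fit within the 16 cows its adjusted p was 0.0522, and with CD3E alone as the level it was 0.119. With the counts of the gzmA row added, a choice made after the row was seen, the r of GZMA was 0.77.

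Both T-box factors and the NKG2D receptor also rose. EOMES had a slope of 1.23 ± 0.25 (adjusted p = 0.00384) and an r of 0.826 (permutation p = 2e-05; rho 0.87, permutation p = 1e-05). TBX21 had a slope of 0.94 ± 0.19 (adjusted p = 0.00382) and an r of 0.836 (permutation p = 1e-05; rho 0.816, permutation p = 1e-05). KLRK1 had a slope of 1.16 ± 0.21 (adjusted p = 0.00134) and an r of 0.812 (permutation p = 2e-05; rho 0.794, permutation p = 5e-05). The value of 1e-05 is the smallest that the resamples can give. Without the 2 farthest cows the r of these 3 genes was 0.769, 0.786 and 0.696 in this order, and within the 16 cows it was 0.79, 0.854 and 0.777. Their calls held within the 16 cows and without any single cow.

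IFNG also rose, with a slope of 0.68 ± 0.20 (adjusted p = 0.0433) and an r of 0.647 (permutation p = 0.00161; rho 0.63, permutation p = 0.00275). The r became 0.6 without the 2 farthest cows and 0.671 within the 16 cows. The call was at the edge of the threshold. It was lost in 11 of the 21 fits that left out 1 cow, where the adjusted p ran from 0.0308 to 0.2, highest without LY cow 6. It was also lost within the 16 cows (adjusted p = 0.108) and with CD3E alone as the level (adjusted p = 0.176).

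NKG7 showed no detectable relation with the level. Its slope was -0.08 ± 0.13 (adjusted p = 0.735), and r was -0.0866 (permutation p = 0.71; rho -0.074, permutation p = 0.752), with -0.171 without the 2 farthest cows and -0.132 within the 16 cows. The direction of the slope was not settled, being 0.15 with total counts in place of TMM factors, a setting under which the median of all genes was 0.23, and 0.01 without LY cow 5.

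**Figure D2:**
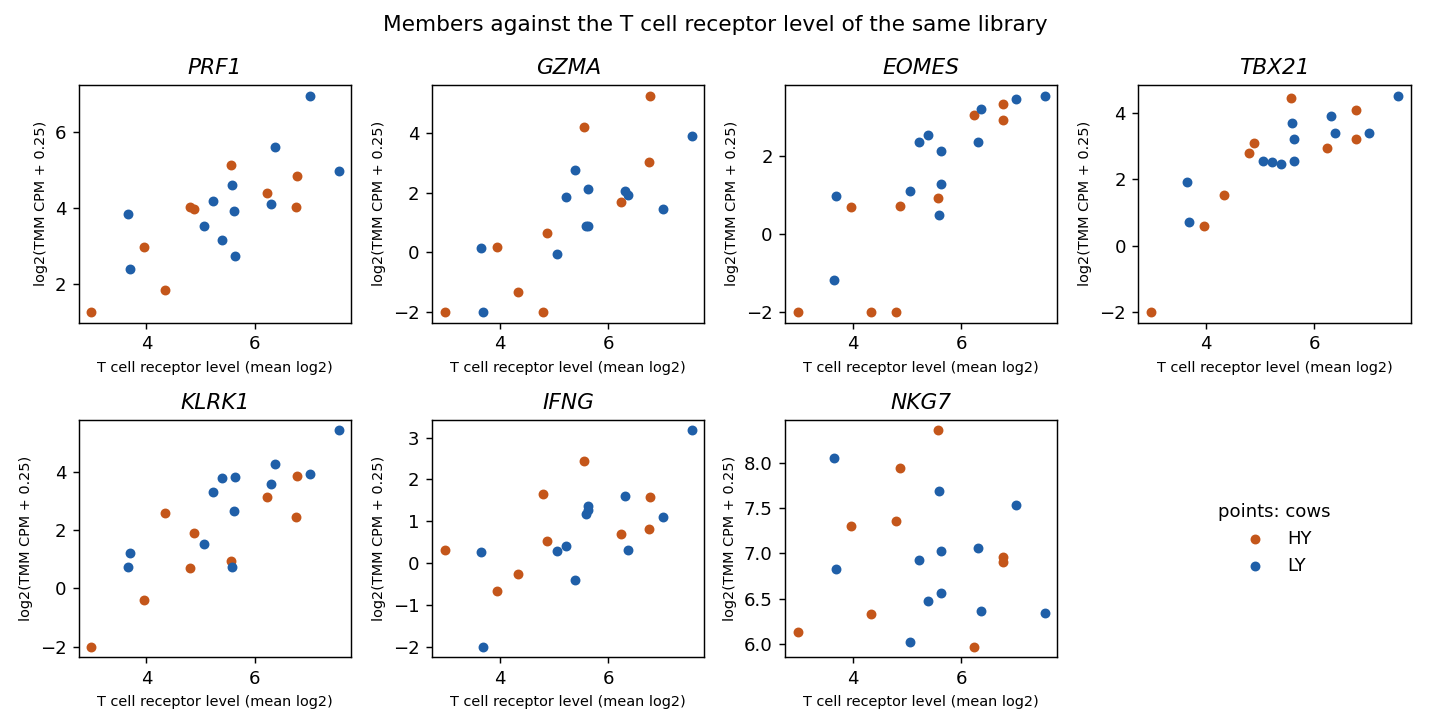
Level of each of 7 members, as log2(TMM CPM + 0.25), against the T cell receptor level of the same library, one point per cow, HY in orange and LY in blue. The points rose together in 6 panels, with r from 0.647 for IFNG to 0.836 for TBX21, and showed no slope for NKG7, where r was -0.0866.

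Other genes of the same programme were taken from lists that hold no member. Among T cell coreceptors and signalling genes, 13 of 14 tested rose with the T cell receptor level, with a median slope of 1.15. TRAT1, an adaptor of the receptor complex, had the steepest slope at 1.41 ± 0.24, and CD28, a costimulatory receptor, followed at 1.37 ± 0.20. ZAP70, the kinase that binds the receptor chains, had 0.53 ± 0.11 (adjusted p = 0.0052), and CD7 with 0.24 ± 0.19 did not pass (adjusted p = 0.445). CD4 (slope 1.16) and CD8A (1.19), the coreceptors of helper and cytotoxic T cells, both rose.

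Of 11 other granule genes, 2 rose, GZMK and CTSW, and the median slope was 0.08. GZMK, a granzyme neighbouring GZMA, had a slope of 1.07 ± 0.13 (adjusted p = 1.29e-05). GNLY, the antimicrobial granulysin gene, had 0.76 ± 0.36 and did not pass (adjusted p = 0.197). LAMP1 and SRGN, a lysosomal membrane protein and the granule proteoglycan, which other leukocytes also express, had slopes of -0.15 ± 0.13 and -0.20 ± 0.16 with adjusted p of 0.485 and 0.468.

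Of 13 killer cell receptor and adaptor genes, 4 rose, namely KLRD1, KLRC1, KLRJ1 and NCR3, with a list median of 0.38. KLRC1 and KLRJ1 did not reach 10 counts in at least 11 cows, so their calls rest on few reads. KLRC1 had 237 counts in all, with 10 or more in 8 cows. KLRJ1 had 410 counts, was counted in 9 cows and had 10 or more in 3. KLRD1, the CD94 chain that pairs with NKG2 receptors, had a slope of 1.45 ± 0.26 (adjusted p = 0.00123). CRTAM, an adhesion receptor of activated cytotoxic cells, had 0.64 ± 0.21 (adjusted p = 0.0616). SLAMF7 at -0.10 and TYROBP at -0.13, a receptor and an adaptor that macrophages use too, did not pass. KLR genes form a family of similar sequences, so reads may be divided among its rows.

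Of 8 effector regulator and cytokine receptor genes, 4 rose, with a median of 0.46. IL12RB2, a chain of the receptor for interleukin 12, had a slope of 0.79 ± 0.21 (adjusted p = 0.0214), and RUNX3, a factor of the CD8 lineage, had 0.58 ± 0.17 (adjusted p = 0.0363). STAT4 and HOPX were the other two, while IL15 (0.21 ± 0.18) and ID2 (0.07 ± 0.07) did not pass. Of 9 lymphocyte homing genes 3 rose, CXCR3 with a slope of 1.41 ± 0.22, CXCR6 with 1.19 ± 0.12 and the chemokine XCL1 with 0.84 ± 0.23. CCL5, a chemokine of cytotoxic cells and macrophages, had -0.13 ± 0.19 and S1PR5 had 0.08 ± 0.15, and neither passed.

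A further pair of lists holds genes that act in the responding cells. Of 9 interferon gamma receptor and target genes, 0 rose and 1 fell, with a median slope of 0.09. The gene that fell was CXCL11, a chemokine that binds CXCR3, with a slope of -0.76 ± 0.23 (adjusted p = 0.0426). IDO1, an enzyme of tryptophan breakdown, had 0.41 ± 0.14 (adjusted p = 0.0797) and GBP4 had 0.37 ± 0.15, whereas GBP5 had 0.01 ± 0.15. Of 6 genes of the FAS death receptor pathway, 0 rose or fell by edgeR, and 1, CFLAR, an inhibitor of caspase activation, had an unadjusted p under 0.05 (slope 0.31 ± 0.11, adjusted p = 0.0855), where 11.6% of all genes had a positive slope at that p. FAS itself had 0.31 ± 0.21 and FADD -0.02 ± 0.18.

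**Figure D3:**
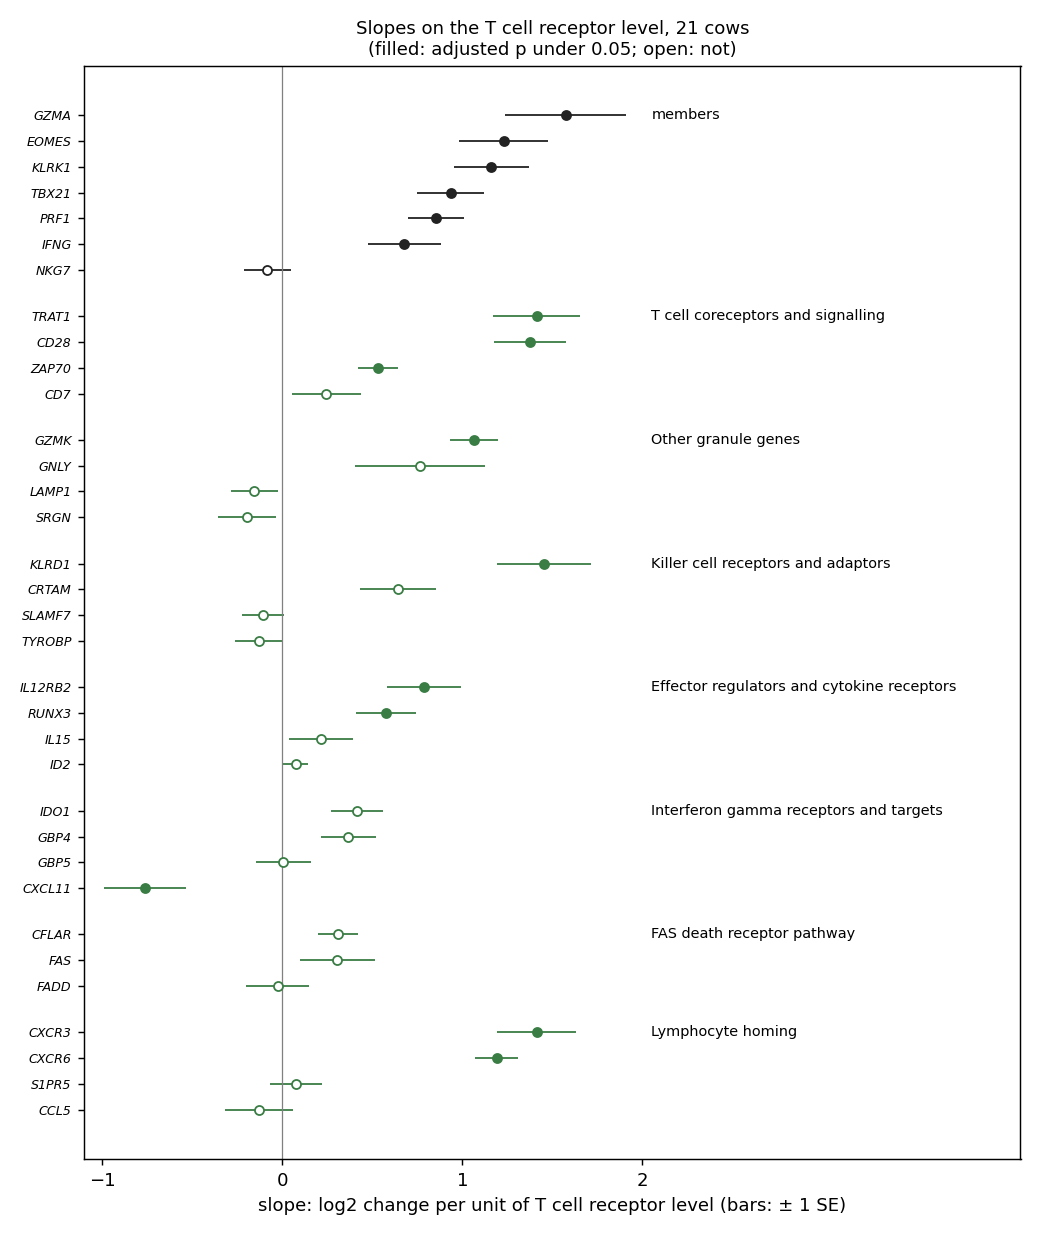
Slope of each gene on the T cell receptor level over 21 cows, in log2 units per unit of level with bars of 1 SE, for the 7 members in black and for genes with the highest and lowest slopes of each list, among genes with at least 10 counts in at least 11 cows, in green; filled points passed an adjusted p of 0.05. The members other than NKG7 stood between 0.68 and 1.58, and CXCL11 was the only filled point below 0.

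Markers of the other cell types were set against the same level. Of the B cell markers present, 1 of 4 rose, BLK, a kinase of B cells, with a slope of 0.71 ± 0.20. Of 7 neutrophil, 6 macrophage and 11 mammary epithelial markers, 0 passed by edgeR. An unadjusted p under 0.05 was found for 6 epithelial markers, all with a negative slope, and for 0 neutrophil or macrophage markers, where 12.5% of all genes had a negative slope at that p. Mean B cell marker levels correlated with TBX21 at r = 0.804 (permutation p = 1e-05 and rho 0.752, permutation p = 0.00015), with 0.694 without the 2 farthest cows and 0.784 within the 16 cows. The r of the other members with the B cell marker level was 0.679 for GZMA (permutation p = 0.00074 and rho 0.633, permutation p = 0.00265), 0.624 for PRF1 (permutation p = 0.00251 and rho 0.618, permutation p = 0.00364) and 0.58 for IFNG (permutation p = 0.00605 and rho 0.531, permutation p = 0.015). It was 0.496 for EOMES (permutation p = 0.0232 and rho 0.44, permutation p = 0.0473), 0.457 for KLRK1 (permutation p = 0.0378 and rho 0.435, permutation p = 0.0507) and 0.33 for NKG7 (permutation p = 0.143 and rho 0.201, permutation p = 0.378). Without the 2 farthest cows the r of these 6 genes was 0.545, 0.475, 0.55, 0.491, 0.472 and -0.0451 in this order, and within the 16 cows it was 0.717, 0.68, 0.575, 0.44, 0.384 and 0.366. The T cell receptor level itself had an r of 0.648 with the B cell marker level (permutation p = 0.00152 and rho 0.614, permutation p = 0.00381), with 0.645 and 0.616. The part of these cells in the result was not tested.

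NKG7 was related to macrophage markers. The macrophage marker level was the mean log2(TMM CPM + 0.25) of the 6 markers present of 8 listed, CD14, CD68, CSF1R, CD163, C1QA and C1QB, and 0 of the 6 were without counts. Their summed level ran from 1230 to 6450 CPM in HY and from 1510 to 5210 CPM in LY. This comparison was added after the NKG7 values were seen. NKG7 correlated with the level at r = 0.872 (permutation p = 1e-05; rho 0.848, permutation p = 1e-05), with 0.796 without the 2 farthest cows, 0.893 within the 16 cows, 0.92 within HY and 0.809 within LY. The cow with the highest NKG7 level, HY cow 1, also had the highest macrophage marker level. For the other members the r with this level was 0.516 for PRF1 (permutation p = 0.0167) and 0.434 for TBX21 (permutation p = 0.0502). It was 0.333 for GZMA, 0.239 for IFNG, 0.0335 for EOMES and -0.0527 for KLRK1. Within HY and LY the r was 0.696 and 0.421 for PRF1, and 0.744 and -0.0194 for TBX21.

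In edgeR's fit on the macrophage marker level, the slope of NKG7 was 0.82 ± 0.11 (adjusted p = 7.603e-05), the 26th lowest p among 12333 genes. Of the 8 members tested, 1 rose and 0 fell, where 8.63% of all genes rose and 8.89% fell. PRF1 had a slope of 0.88 ± 0.33 (adjusted p = 0.0659), with 0.40 within the 16 cows. GZMA (0.68 ± 0.61), TBX21 (0.42 ± 0.35), IFNG (0.05 ± 0.36), EOMES (-0.05 ± 0.55) and KLRK1 (-0.69 ± 0.51) did not pass. Of the 11 other granule genes 3 rose with this level, GNLY with a slope of 1.68 ± 0.37, CTSC with 0.45 ± 0.14 and STXBP2 with 0.40 ± 0.14. CTSC encodes the protease that activates granzymes, and it serves neutrophil and macrophage proteases too.

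NKG7 was lower where epithelial markers were high, with r = -0.639 (permutation p = 0.00206 and rho -0.566, permutation p = 0.00806), with -0.546 without the 2 farthest cows and -0.688 within the 16 cows. The same relation was -0.524 for PRF1 (permutation p = 0.0152 and rho -0.538, permutation p = 0.0137), with -0.658 and -0.414, and -0.5 for GZMA (permutation p = 0.0216 and rho -0.505, permutation p = 0.0217), with -0.539 and -0.507. With neutrophil markers NKG7 had an r of -0.00901 (permutation p = 0.969 and rho -0.0143, permutation p = 0.952), with 0.0103 and -0.0163. These are among 28 relations of 7 members with the markers of 4 cell types.

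**Figure D4:**
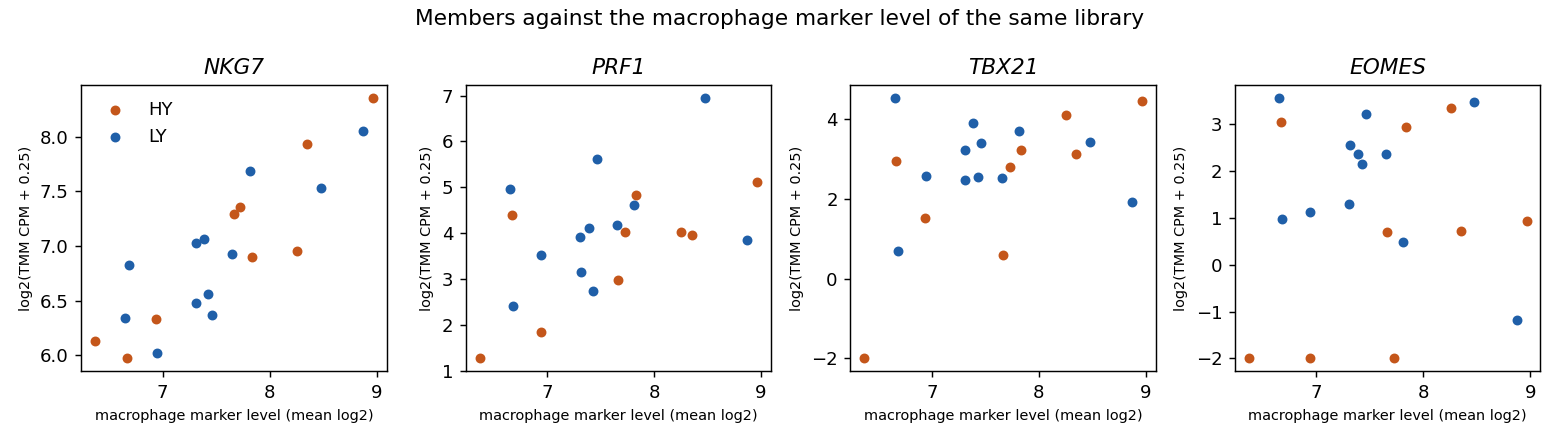
Levels of NKG7, PRF1, TBX21 and EOMES, as log2(TMM CPM + 0.25), against the macrophage marker level of the same library, one point per cow, HY in orange and LY in blue. NKG7 rose along the axis in both groups (r = 0.872). The r was 0.516 for PRF1, 0.434 for TBX21 and 0.0335 for EOMES.

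Lactation period was the next measure, since the study treats it as a factor of milk production. By edgeR, 0 of 8 members passed an adjusted p of 0.05, where 0.0243% of all genes did, and 0 passed by DESeq2. Of the 8 members, 2 had an unadjusted p under 0.05, where 22.3% of all genes did. The slopes below are log2 changes per 100 days.

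EOMES had the steepest slope, 1.05 ± 0.43 (p = 0.0224, adjusted p = 0.16), and an r of 0.582 with lactation period (permutation p = 0.00622; rho 0.503, permutation p = 0.0217). The r became 0.707 without the 2 farthest cows, 0.633 within the 16 cows, 0.646 within HY and 0.528 within LY. For lactation period the 2 farthest cows were the 2 earliest, HY cow 1 at 41 days and LY cow 9 at 52 days. LY cow 9 had the highest EOMES level among the cows at up to 108 days, so leaving it out raises r. A gap in the labels sets 8 cows at 41 to 108 days, 4 of them HY, apart from 13 cows at 167 to 270 days, 5 of them HY. In the early cows EOMES was 0 at the lowest, 0.927 at the median and 4.90 CPM at the highest, with 3 cows at 0. In the late cows it was 1.14, 5.59 and 11.5 CPM, and all 13 had counts. The early and late cows overlapped.

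KLRK1 had a slope of 0.90 ± 0.41 (p = 0.0359, adjusted p = 0.193) and an r of 0.453 (permutation p = 0.0386; rho 0.435, permutation p = 0.0496), with 0.527 without the 2 farthest cows and 0.481 within the 16 cows. It ran from 0 to 11.6 CPM with a median of 1.86 in the early cows and from 0.5 to 42.5 CPM with a median of 9.75 in the late cows. When 1 cow was left out, the slope of EOMES ran from 0.96 to 1.46 and that of KLRK1 from 0.70 (without LY cow 6) to 1.34 (without LY cow 9). PRF1 had a slope of 0.48 ± 0.32 and an adjusted p of 0.372, with 0.24 without LY cow 12, 0.77 without HY cow 1 and 0.06 within the 16 cows. NKG7 had the opposite sign, -0.30 ± 0.17 (adjusted p = 0.3), with -0.46 without HY cow 4 and -0.15 without HY cow 1.

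The slopes of TBX21 (0.02 ± 0.32), GZMA (0.03 ± 0.59) and IFNG (-0.21 ± 0.36) were smaller than their errors, and single cows decided their values. Without HY cow 1 they were 0.31, 0.93 and 0.03 in this order, and without LY cow 6 they were -0.08, -0.10 and -0.51. By linear regression on log2 values the slope of GZMA was 0.85. All 3 cows without a GZMA count were early cows. Ratios of EOMES and of GZMA to TBX21 were computed after the values were seen. That of EOMES to TBX21 correlated with lactation period at r = 0.504 (permutation p = 0.0214 and rho 0.442, permutation p = 0.0474), with 0.451 without the 2 farthest cows and 0.465 within the 16 cows. For GZMA to TBX21 the r was 0.263 (permutation p = 0.25 and rho 0.23, permutation p = 0.315), with 0.366 and 0.313.

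The T cell receptor level itself had an r of 0.404 with lactation period (permutation p = 0.0705; rho 0.284, permutation p = 0.211), with 0.556 and 0.473. With this level in the fit, 0 of 8 members passed for lactation, as did 0 of all genes, and 1 member had an unadjusted p under 0.05, where 11.3% of all genes did. That member was IFNG, with a slope of -0.71 ± 0.29 (p = 0.0237, adjusted p = 0.41). EOMES had 0.57 ± 0.34 (adjusted p = 0.524) and KLRK1 0.37 ± 0.31 (adjusted p = 0.67). Over the 21 cows no slope differed detectably between HY and LY, since 0 members passed the test of that difference, as did 0% of all genes, and 0 had an unadjusted p under 0.05, where 2.61% did, the p before adjustment being 0.177 for PRF1 and above that for the others.

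Of the 13 other killer cell receptor genes, 0 passed for lactation after adjustment. A positive slope at an unadjusted p under 0.05 was found for 4 of them, where 9.58% of all genes had one. They were KLRD1 (slope 1.20 ± 0.44, adjusted p = 0.123), KLRC1 (1.24 ± 0.52, adjusted p = 0.169), NCR1 (0.94 ± 0.42, adjusted p = 0.187) and CD244 (0.74 ± 0.22, adjusted p = 0.0791). KLRC1 had 10 or more counts in only 8 cows. At the same p a positive slope was also found for 4 of 8 effector regulator genes and 2 of 6 FAS pathway genes. It was found for 1 of 14 coreceptor and signalling genes and 1 of 11 other granule genes. Among interferon gamma and homing genes it was found for 0 of 9 in each list. In all these lists 0 genes passed after adjustment. CXCL9, a chemokine induced by interferon gamma, had -0.89 ± 0.28 (adjusted p = 0.0875). Among the markers of other cells, 0 passed after adjustment. At an unadjusted p under 0.05, 4 of 7 neutrophil markers had a positive slope, where 9.58% of all genes did. At the same p, 4 of 11 epithelial markers had a negative slope, where 12.8% of all genes did. The part of these cells in the slopes of the members was not tested.

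**Figure D5:**
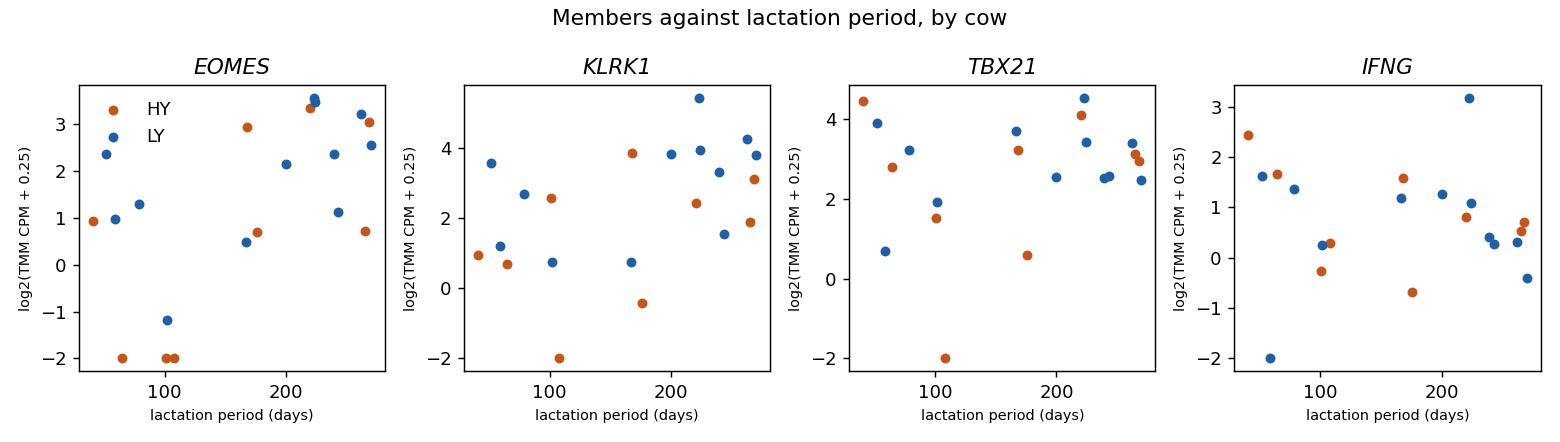
Levels of EOMES, KLRK1, TBX21 and IFNG, as log2(TMM CPM + 0.25), against lactation period in days, one point per cow, HY in orange and LY in blue. The 4 lowest EOMES values lay at up to 108 days, and r was 0.582 for EOMES, 0.453 for KLRK1, 0.2 for TBX21 and -0.0651 for IFNG.

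No relation of a member with a milk trait passed the test. The traits are breeding values whose units are not given in the sources used here. By edgeR, 0 of 8 members passed for milk yield, fat, protein or solid, where 0.105%, 0%, 0% and 0.0324% of all genes did, and 0 passed by DESeq2. An unadjusted p under 0.05 was found for 3.7%, 2.87%, 2.77% and 3.13% of all genes in this order, and among the members for GZMA with milk fat only, at a slope of 1.04 ± 0.49 log2 units per 10 units of fat value (p = 0.0446, adjusted p = 0.999). On the log2 scale the same pair had an r of 0.0317 (permutation p = 0.891; rho -0.104, permutation p = 0.653), with -0.226 without the 2 farthest cows. HY cow 2 had both the highest GZMA level and the highest fat value. Over the 28 relations of 7 members with 4 traits, r ran from -0.316 to 0.158, and 0 had a permutation p under 0.05. These r pool HY and LY, which were set apart by milk yield value. With milk yield the r within HY and LY was 0.265 and 0.105 for KLRK1, where the pooled r was -0.282. It was 0.507 and 0.169 for EOMES (pooled -0.149), 0.246 and 0.181 for TBX21 (-0.0818), and 0.154 and 0.418 for PRF1 (-0.0287). For GZMA it was 0.333 and 0.259, for IFNG -0.0246 and 0.133, and for NKG7 0.0897 and -0.127. These group values were not tested.

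Between HY and LY, 0 of 8 members passed by edgeR and 0 had an unadjusted p under 0.05, where 0% and 4.7% of all genes did, and 0 members passed by DESeq2. KLRK1 came nearest, with a log2 level averaging 1.45 ± 1.85 (SD) over the 9 HY cows and 2.92 ± 1.53 (SD) over the 12 LY cows, a difference of -1.46 (exact permutation test over 293930 splits, two-sided p = 0.0611). Its edgeR difference was -1.35 ± 0.66 (adjusted p = 0.999). When 1 cow was left out, the unadjusted edgeR p of KLRK1 ran from 0.0138 to 0.146. Over 9 other settings of the fit its unadjusted p ran from 0.0335 to 0.0717. EOMES had means of 0.634 ± 2.22 and 1.86 ± 1.39 (exact permutation p = 0.135), and NKG7 had 7.03 ± 0.805 and 6.91 ± 0.607 (exact permutation p = 0.696). The T cell receptor level was 5.14 ± 1.3 in HY and 5.59 ± 1.16 in LY (exact permutation p = 0.414). Of the 13 killer cell receptor and adaptor genes, 0 passed between HY and LY after adjustment. At an unadjusted edgeR p under 0.05, 5 of the 13 were lower in HY and 0 higher, where 3.19% of all genes were lower. That list includes genes of few reads, such as KLRC1 and KLRJ1. At the same p, 1 of 14 coreceptor and signalling genes and 1 of 8 effector regulator genes were lower in HY.

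Among 9361 genes with at least 10 counts in at least 11 cows, those most like the mean of the 7 standardised members over 21 cows included ATP8B2 (r = 0.946), STIM1 (0.934), CXCR6 (0.932), CD3D (0.924), CXCR3 (0.924), CD2 (0.921), UBD (0.92), LCK (0.919) and CD4 (0.915). CD8A was 12th with 0.903, GZMK 135th with 0.765 and KLRD1 229th with 0.726. Each member was also set beside 11 single lymphocyte genes, as a description. TBX21 was closest to CXCR3, a receptor gene that T-bet is known to activate, at r = 0.912. EOMES was closest to CD8A at 0.905, KLRK1 to KLRD1 at 0.873 and PRF1 to CD4 at 0.842. NKG7 was closest to GNLY at 0.572, and its r with CD8A was -0.0461.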

How the data were processed

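RNA of milk somatic cells was extracted with TRIzol and sequenced as paired reads on an Illumina HiSeq instrument. Per the labels and the study's methods, the authors trimmed reads with Trimmomatic, ran TopHat2 with Bowtie2 on the bosTau7 genome and used HTSeq to count reads per gene. Tool versions and the use of strand are not given in the sources used here. The deposited values are raw counts per gene for each cow, with 5 HTSeq summary lines per table. One nameless row (0.105% of gene counts) was left out, and 23 symbols that had turned into dates could not be named. Every pair of libraries differed by more than sampling noise.

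The 12333 genes with a count in at least 1 of the 21 cows were fitted with the quasi-likelihood test of edgeR 4.0.16 (R 4.3.3) with TMM factors and Benjamini-Hochberg adjustment over all of them, at a threshold of 0.05. Each measure was the only term, except in the fit of lactation period at a fixed T cell receptor level and in that of its product with yield group. Slopes are per 1 unit of a marker level, 100 days, 100 units of milk yield or 10 units of another trait, and the SE is the slope divided by the root of F. Levels are log2(TMM CPM + 0.25). Correlations were tested with two-sided permutation tests of 100000 resamples over 42 relations of members with the T cell receptor level, lactation period and 4 traits. The same test was run on 28 relations of members with cell type marker levels and on 8 ratios. It was also run on 5 relations of the T cell receptor level with lactation period and traits, and 4 with cell type levels. Cell type levels with lactation period gave 4 more, and the gzmA row was tested too. These permutation p are not adjusted. HY and LY were compared by exact enumeration of the group labels in place of the planned resamples. The fits were tested on simulated counts. Alternatives were DESeq2 1.42.0, other scalings, a filter of 10 counts in at least 9 cows, robust dispersion, linear regression on log2 values, further covariates, other definitions of the T cell receptor level, the 16 cows of the lower mapping rate and leaving out each cow.

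Cows are numbered within their group in the order of deposition. The text names all 9 members, the receptor complex genes, the 2 steepest and 2 lowest slopes on the T cell receptor level in each list among genes with at least 10 counts in at least 11 cows, and the 10 genes most like the members. Of the genes this rule gives, 2 are not reported here. A gene outside this rule was named because it passed a test or had an unadjusted p under 0.05, or as a close partner of a member, after its values were seen. The members and lists were chosen with earlier results of these data known. Gene names came from the tables, and RefSeq (ARS-UCD2.0), which holds all 9 symbols, served only for gene order, since the files use another build. Neither sequences nor gene lengths were used here, so levels are not ranked between genes.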

Additional observations from a re-analysis of the deposited data

How the results depend on the processing

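HY and LY were different cows and the labels name no pairs, so no paired analysis was made. The number of members that rose with the T cell receptor level was 6 in 9 of 11 other settings. It was 3 within the 16 cows of the lower mapping rate, where fewer cows were fitted, and 4 with CD3E alone as the level, and 5 to 6 when 1 cow was left out. EOMES, TBX21 and KLRK1 were called in each of these settings. For PRF1, GZMA and IFNG the slopes within the 16 cows were 0.59, 1.59 and 0.78, and with CD3E alone those of GZMA and IFNG were 1.37 and 0.68. Over the fits that left out 1 cow, the slope ran from 0.66 to 1.0 for PRF1, 1.33 to 1.70 for GZMA, 1.16 to 1.45 for EOMES, 0.77 to 1.02 for TBX21, 1.07 to 1.27 for KLRK1, 0.51 to 0.76 for IFNG and -0.19 to 0.01 for NKG7. The slope of NKG7 changed sign with total counts in place of TMM factors (0.15, below the median of 0.23 of all genes) and without LY cow 5 (0.0126). For lactation period the 2 farthest cows were the 2 earliest, HY cow 1 and LY cow 9. Without them the r of IFNG with lactation period changed sign (0.161), while those of GZMA and TBX21 became 0.612 and 0.455. The cause was not tested. On the macrophage marker level, members called were 1 by edgeR, 2 by DESeq2 (PRF1 added) and 3 with total counts (PRF1 and TBX21 added), and NKG7 was called in all 8 other settings.

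For lactation period, at a fixed receptor level, milk traits, HY against LY and the product term, members called were 0 in every setting tried. In the DESeq2 fit at a fixed receptor level only 4203 genes received an adjusted p. PRF1, GZMA, IFNG, EOMES, TBX21 and KLRK1 received none there, so they could not be called in that setting. All-gene counts moved more. With the T cell receptor level 901 genes passed, 151 within the 16 cows, 171 with CD3E alone, 558 with yield group as a term, 1342 by DESeq2 and 3460 with total counts. Of these, 46.5% rose by TMM and 93.2% with total counts. Leaving out 1 cow gave 258 to 1357, the lowest without HY cow 9. For lactation period 3 genes passed by edgeR, 865 by DESeq2 and 0 to 428 without 1 cow. On the macrophage marker level 2161 passed, and 1558 to 5290 in other settings. Low counts limit IFNG, GZMA and EOMES, since 15, 14 and 17 of the 21 cows had 10 or more. A slope that missed the threshold does not show that a gene is unrelated to a measure.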
